A study of Bos taurus with 6 samples.

Results

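Cultures grown from myoblasts of cattle, the mononucleated cells that build muscle fibers by fusion, were compared after resveratrol (RSV) or solvent in differentiation medium. The comparison covered 8 genes of fatty acid handling, namely ANGPTL4, UCP2, PDK4, CPT1A, PLIN2, HADHA, ACADVL and PPARGC1A. The genes were chosen from measured values, since ANGPTL4 and UCP2 stood out in the RSV against DMSO comparison of these cultures, and a gene could be followed only where a symbol was paired with its identifier in the sheet of differentially expressed mRNAs that accompanies the study. Of the 8 genes, 5 had such an identifier (ANGPTL4, UCP2, CPT1A, ACADVL and PPARGC1A), out of 1863 mRNAs with a symbol and 26332 mRNAs in the deposited table. PDK4, PLIN2 and HADHA are not paired with an identifier there and were not analysed here. Because a symbol came from a sheet of mRNAs that differed, the difference between the groups is described below for each gene without a test.

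The RSV group held 3 cultures given 20 μM RSV in differentiation medium, and the DMSO group held 3 cultures given the solvent in the same medium, each for 4 days. The cells came from fetal beef longissimus dorsi muscle and were primary cultures, with RSV as the only labelled difference between groups, and the study's methods describe independent experiments within each group. The deposited table gives 1 mean of normalized reads per mRNA and group, and the whole reads of each library were recovered from those means for 19848 of 20459 mRNAs with a mean above 0. The recovered libraries are called A, B and C within each group, in the order of their size factors. These letters carry no replicate number and do not link an RSV library to a DMSO library.

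Muscle cells take up fatty acids released from lipoproteins, activate them to acyl-CoA, pass them into mitochondria on carnitine and shorten them by beta-oxidation. The nuclear receptors of the PPAR family sense fatty acids and switch on many genes along this route, with the coactivator encoded by PPARGC1A as a partner. ANGPTL4, a secreted inhibitor of lipoprotein lipase, CPT1A, PDK4 and PLIN2 are textbook PPAR target genes in muscle.

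The recovered reads summed to between 9155964 and 11038178 per library. In a limma voom fit, 14420 mRNAs whose mean reached 10 normalized reads were tested, and a difference was called at an adjusted p under 0.05. All 5 genes with an identifier passed this minimum and were called, 4 higher and 1 lower in RSV, against a background of 2412 mRNAs called higher (16.7%) and 2405 called lower (16.7%). Nothing can be read from that count, since 1669 of 1669 tested mRNAs with a symbol were called. Leaving out DMSO library A, B or C lowered the number of mRNAs called in either direction from 4817 to 2502, 2602 and 2368. Leaving out RSV library A gave 3345, B 5289 and C 6013. Among all tested mRNAs the log2 fold change (log2FC) of RSV over DMSO had a median of 0.01 and a median absolute value of 0.25. In bulk cultures, a change in the share of cells of one type and a change in RNA per cell cannot be told apart. Levels are reads divided by the size factor of the library and not by gene length, so they are compared between groups and not between genes.

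ANGPTL4 (ENSBTAG00000002473) had the greatest difference of the 5 genes. It had 310, 257 and 589 normalized reads in RSV libraries A, B and C, and 57.1, 55.2 and 49.6 in DMSO libraries A, B and C. Every RSV library was far above every DMSO library, and RSV library C stood well above the other RSV libraries. The group means were 385 ± 179 (SD, n = 3) in RSV and 54.0 ± 3.87 (SD, n = 3) in DMSO. The fitted log2FC was 2.72 ± 0.48 (SE), a 6.60-fold higher level, which placed ANGPTL4 at rank 52 of 14420 mRNAs ordered from the most positive log2FC.

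The size of the ANGPTL4 difference was the least certain of the 5. Set against the DMSO mean, the level was 5.74-fold higher in RSV library A, 4.75-fold in B and 10.9-fold in C. The 95% Poisson intervals of the normalized reads, which cover counting error only, ran from 278 to 345 in A, from 227 to 289 in B and from 544 to 637 in C. Library C therefore lay above the other RSV libraries by more than counting error. Only 2.87% of tested mRNAs had a greater standard error of the log2FC than ANGPTL4. Without RSV library C the log2FC was 2.37, or 5.18-fold.

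UCP2 (ENSBTAG00000003692) encodes a carrier of the mitochondrial inner membrane, named for its likeness to the uncoupling protein of brown fat. The RSV libraries had 198, 218 and 193 normalized reads and the DMSO libraries 79.9, 89.6 and 71.1. The RSV libraries lay close together and apart from DMSO. RSV library C, the highest for ANGPTL4, was the lowest of the RSV libraries for UCP2, but only within counting error. The 95% Poisson intervals overlapped, from 172 to 226 in A, from 191 to 247 in B and from 167 to 221 in C. The log2FC was 1.33 ± 0.14 (SE), a 2.52-fold higher level at rank 361. The coefficient of variation was 6.59% among RSV libraries, against 46.4% for ANGPTL4 (n = 3 each).

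**Figure D1:**
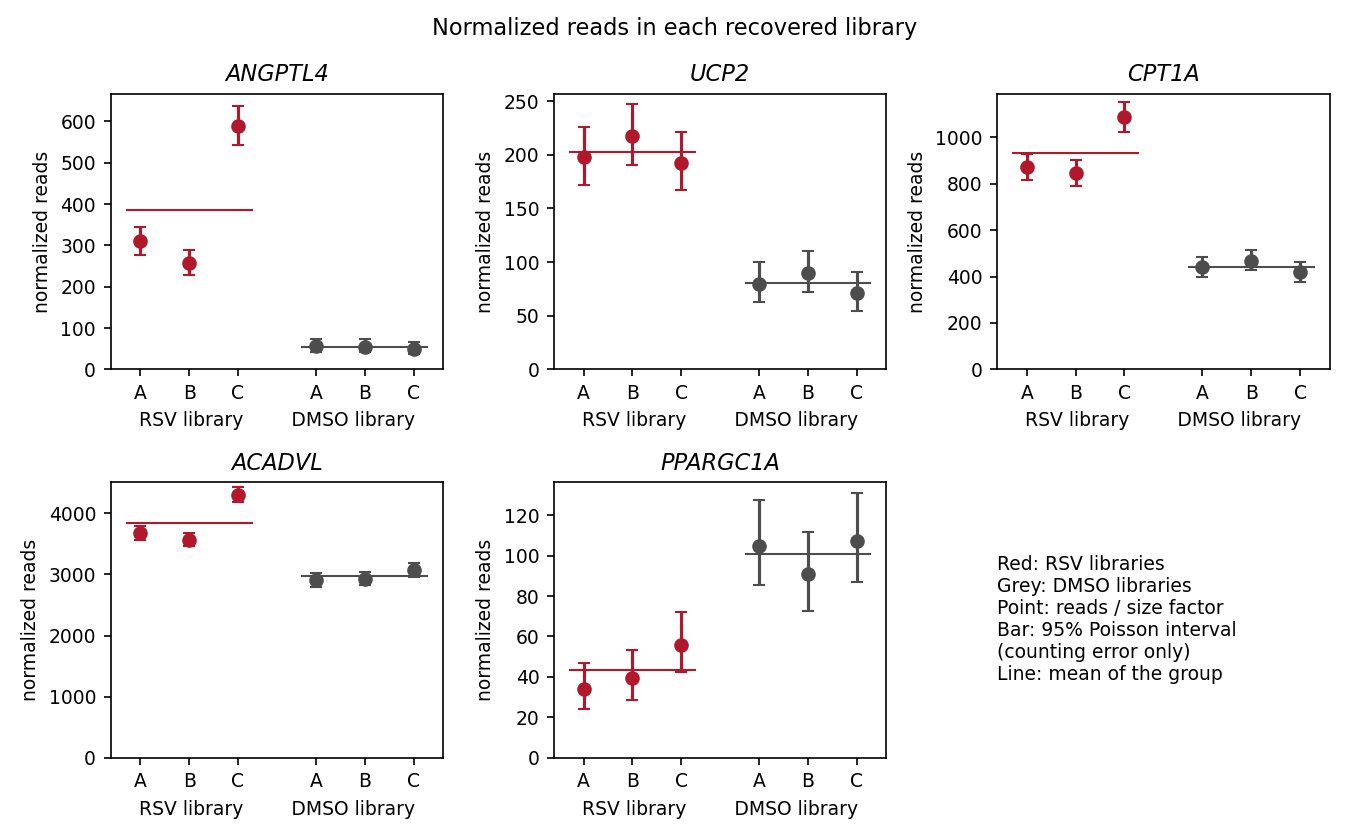
Normalized reads (y axis, linear from 0) of the 5 genes in each recovered library (x axis), with RSV in red and DMSO in grey; points are reads over size factor, bars are 95% Poisson intervals of counting error, and horizontal lines are group means. The groups are apart in all 5 panels, and RSV library C is highest of its group for ANGPTL4, CPT1A, ACADVL and PPARGC1A but lowest for UCP2. For PPARGC1A and UCP2 the bars of the RSV libraries overlap.

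CPT1A (ENSBTAG00000021999) encodes the outer membrane enzyme that joins long-chain acyl groups to carnitine, the controlled step of their entry into mitochondria. RSV libraries held 871, 846 and 1086 normalized reads, against 440, 469 and 419 with DMSO. The lowest RSV library was well above the highest DMSO library, and RSV library C was again the highest. The log2FC was 1.07 ± 0.11 (SE), a 2.10-fold higher level, and it was 0.96 without RSV library C.

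ACADVL (ENSBTAG00000003072) encodes the very long-chain acyl-CoA dehydrogenase, which takes the first step of mitochondrial beta-oxidation. Its level was 3671, 3567 and 4301 normalized reads under RSV and 2904, 2927 and 3064 under DMSO. There was no overlap, yet the gap between the lowest RSV and the highest DMSO library was smaller than the gap between RSV libraries B and C. The log2FC of 0.37 ± 0.08 (SE), or 1.29-fold, was the smallest of the 5, and leaving out RSV library C brought it to 0.29.

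PPARGC1A (ENSBTAG00000017024) encodes a coactivator that works with PPAR and other nuclear receptors and is known in muscle for raising mitochondrial and oxidative genes. It was the gene of the 5 with a lower level in RSV. Its normalized reads were 34.0, 39.7 and 56.0 with RSV, against 105, 90.7 and 107 with DMSO. All RSV libraries were below all DMSO libraries, and RSV library C was the RSV library nearest to DMSO. The log2FC was -1.24 ± 0.21 (SE), a 2.37-fold lower level. The reads behind it were few, from 37 to 59 per RSV library and from 87 to 101 per DMSO library. Without RSV library C the log2FC was -1.44.

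The other genes of the pathway came from 9 lists that hold 113 genes with the 8 above included. Only 18 of the 113 (15.9%) had an identifier, so the lists give no account of the pathway as a whole. Of the 18, 10 were called higher and 8 lower, with a median log2FC of 0.39. Without the 5 genes already described, 6 of 13 were called higher and 7 lower, with a median of -0.54 beside 0.01 over all tested mRNAs. That every one was called follows from how the symbols were obtained. With genes selected as differing in both directions, the median falls away from 0 by that selection and shows no shift of the lists.

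In the carnitine shuttle, both carnitine palmitoyltransferase 1 genes with an identifier were higher in RSV, and the transferase of the inner membrane was lower. CPT1B (ENSBTAG00000016048), the muscle form of the enzyme that CPT1A encodes, had 81.8, 97.8 and 118 normalized reads under RSV and 50.8, 28.1 and 29.3 under DMSO. DMSO library A was well above the other DMSO libraries but still below every RSV library, and the log2FC was 1.47 ± 0.27 (SE). CPT2 (ENSBTAG00000014649), which returns acyl groups from carnitine to CoA inside mitochondria, had 1885, 1784 and 1607 normalized reads under RSV and 3190, 3282 and 3321 under DMSO. Its groups were far apart with little spread, and the log2FC was -0.89 ± 0.07 (SE). The shuttle list thus held 2 genes higher and 1 lower among 3 with an identifier of 11 listed.

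Among the genes of fatty acid activation, 1 was higher and 3 were lower, of 4 with an identifier out of 12. ACSL6 (ENSBTAG00000019708), a long-chain acyl-CoA synthetase, had 66.2, 55.4 and 82.5 normalized reads in RSV and 32.2, 24.0 and 20.3 in DMSO, with a log2FC of 1.39 ± 0.27 (SE). ACSL5 (ENSBTAG00000006707), another synthetase of the same family, had 284, 297 and 178 in RSV and 401, 493 and 440 in DMSO, with a log2FC of -0.84 ± 0.18 (SE). These synthetases of one family were thus called in opposite directions, and RSV library C was the furthest from DMSO for both. ACSS2 (ENSBTAG00000013303), which makes acetyl-CoA from acetate, had 80.9, 99.7 and 81.6 normalized reads in RSV and 228, 263 and 225 in DMSO, with a log2FC of -1.45 ± 0.14 (SE). Without DMSO library B, ACSL5 was no longer called, at a log2FC of -0.76. DBI (ENSBTAG00000009517), the acyl-CoA binding protein, was lower with a log2FC of -0.54 ± 0.10 (SE).

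In the list of lipoprotein lipase and fatty acid uptake, ANGPTL4 was the gene called higher, and the other 2 with an identifier were called lower. VLDLR (ENSBTAG00000018517), a lipoprotein receptor, had 2095, 2370 and 1755 normalized reads in RSV and 3300, 3409 and 3561 in DMSO. The groups were well apart, with a log2FC of -0.73 ± 0.10 (SE). FABP3 (ENSBTAG00000016819), the fatty acid binding protein of heart and muscle, had 628, 653 and 695 in RSV and 949, 968 and 1008 in DMSO. Its libraries lay close together in both groups, and the log2FC was -0.57 ± 0.06 (SE).

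The remaining genes with an identifier were spread over the other lists. DGAT2 (ENSBTAG00000001154), which makes triglyceride, was a low gene with 26.7, 23.1 and 48.4 normalized reads in RSV and 4.15, 7.29 and 6.77 in DMSO. As for ANGPTL4, RSV library C was the highest RSV library, but on 29, 25 and 51 reads in A, B and C. Its 95% Poisson interval, from 36.0 to 63.6 normalized reads, overlapped that of A, from 17.9 to 38.3, unlike for ANGPTL4. The log2FC of DGAT2 was 2.29 ± 0.46 (SE), on only 4 to 7 reads per DMSO library. ACAA1, the thiolase of peroxisomal beta-oxidation, had a log2FC of 0.41 ± 0.09 (SE). In the ketone body list, ACAT1, a mitochondrial acetoacetyl-CoA thiolase, had a log2FC of -0.55 ± 0.07 (SE).

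The deacetylases SIRT1 and SIRT3 stood in the same list as PPARGC1A. SIRT1 (ENSBTAG00000014023), a nuclear enzyme known to deacetylate the PPARGC1A protein and often discussed in connection with RSV, had 887, 940 and 1081 normalized reads in RSV and 719, 673 and 771 in DMSO. SIRT3 (ENSBTAG00000002044), its mitochondrial relative, had 251, 190 and 245 in RSV and 116, 150 and 130 in DMSO. Both were above DMSO in every RSV library, with a log2FC of 0.42 ± 0.09 (SE) for SIRT1 and 0.79 ± 0.16 (SE) for SIRT3, whereas PPARGC1A was below DMSO in every RSV library. SIRT1 was no longer called without DMSO library B, at a log2FC of 0.38.

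**Figure D2:**
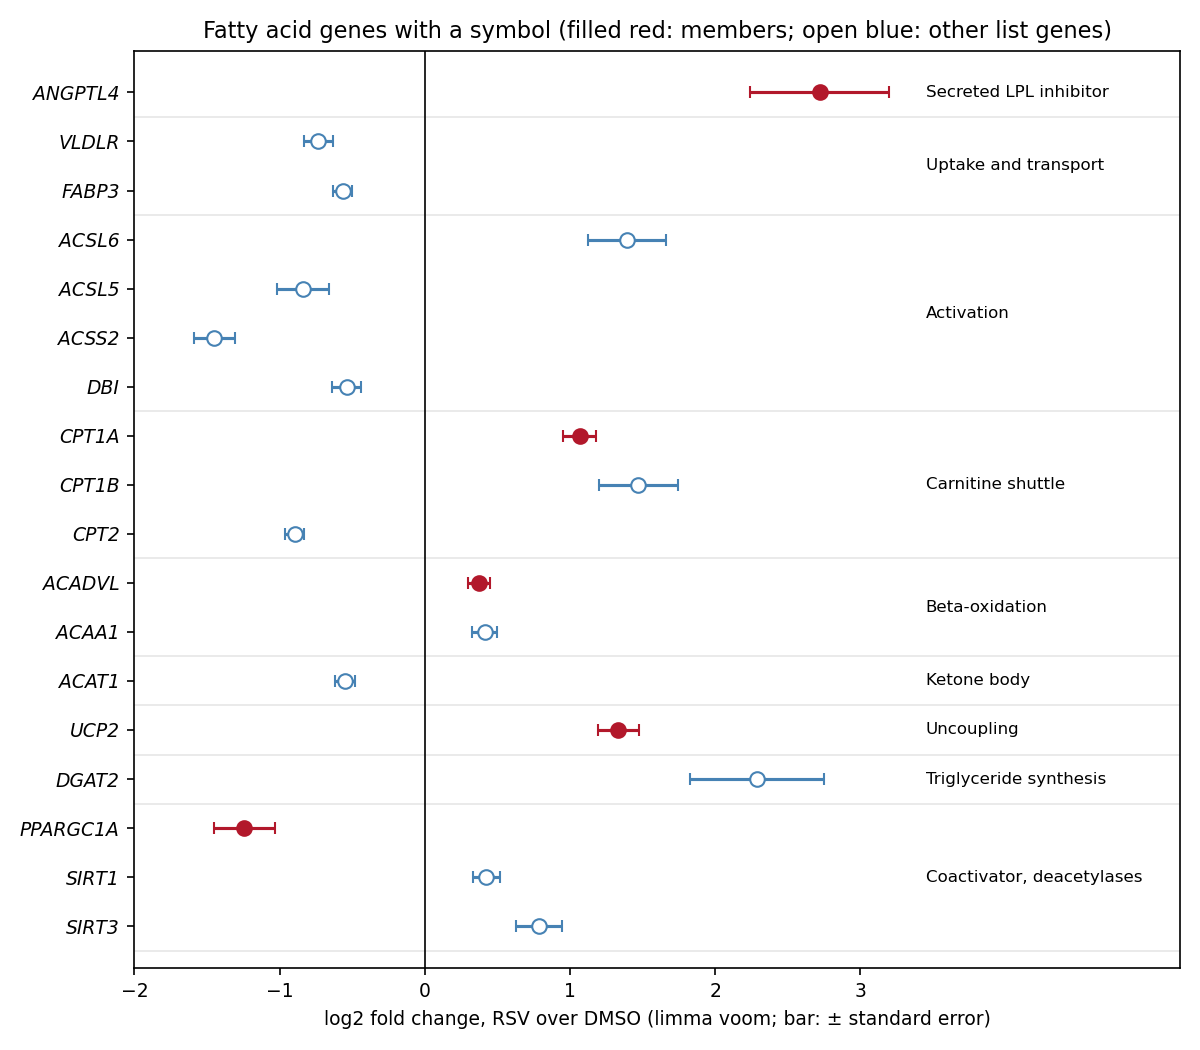
Fitted log2FC of RSV over DMSO (x axis; points with bars of ± 1 standard error, limma voom, 3 libraries per group) for the 18 genes with an identifier (y axis), ordered by role, with the 5 genes of the opening in filled red and the other list genes in open blue. The carnitine shuttle, activation and coactivator groups each hold genes on both sides of 0, and ANGPTL4 and DGAT2 have the greatest positive values and the longest bars.

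The spread within the RSV group is described without a test, since a high library also raises the group mean on which the genes were chosen. For each library, the log2 ratio of its level to the mean of the other libraries in its group was computed. Over all 14420 tested mRNAs the median absolute ratio was 0.20 in RSV library C, 0.15 in B and 0.10 in A, and between 0.08 and 0.10 in the DMSO libraries. RSV library C was thus the library furthest from its group across the table, with 90% of its ratios between -0.86 and 0.67.

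For ANGPTL4 the ratio in RSV library C was 1.06, at percentile 98.3 of the 14420 mRNAs. PPARGC1A followed with 0.60 at percentile 93.7, CPT1A with 0.34 at percentile 85.2 and ACADVL with 0.25 at percentile 79.5. For UCP2 the ratio was -0.11 at percentile 35.3. ANGPTL4 lay outside the range of the middle 90% of mRNAs, and the other 4 genes lay inside it. Among the 2412 mRNAs called higher, the ratio in RSV library C had a median of 0.15 and a middle 90% from -0.41 to 0.83, so ANGPTL4 lay above that range too. Among the 2405 called lower, the middle 90% ran from -1.15 to 0.16, and PPARGC1A at 0.60 lay above it. PPARGC1A had few reads, and its 95% Poisson intervals overlapped between RSV libraries. They ran from 23.9 to 46.9 normalized reads in A, from 28.7 to 53.5 in B and from 42.6 to 72.2 in C. Of the other pathway genes, DGAT2 had a ratio of 0.95 and ACSL5 of -0.70.

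**Figure D3:**
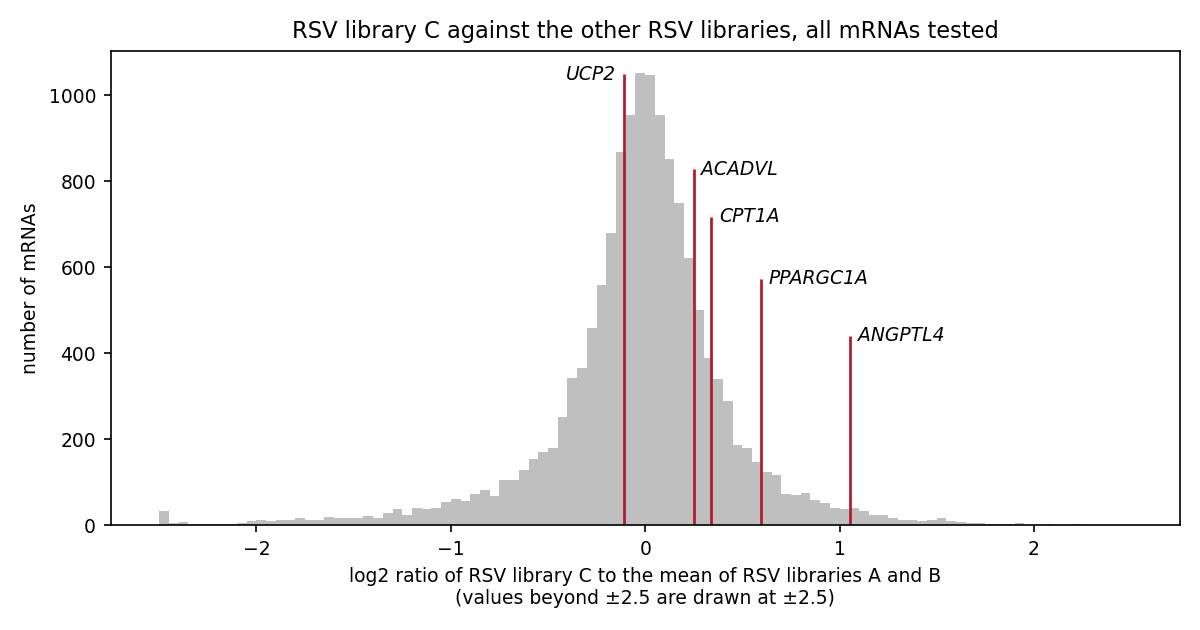
Histogram of the log2 ratio of RSV library C to the mean of RSV libraries A and B (x axis) over the 14420 tested mRNAs (y axis, number of mRNAs), with red lines at the 5 genes; the height of a line has no meaning. ANGPTL4 at 1.06 lies in the right tail, and UCP2 at -0.11 lies near the middle.

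RSV library C was also the RSV library furthest from the DMSO mean for 65.9% of the 2412 mRNAs called higher and for 73.4% of the 2405 called lower. Among the 5 genes it was the furthest for ANGPTL4, CPT1A and ACADVL. RSV library B was the furthest for UCP2, and A for PPARGC1A, with overlapping Poisson intervals between RSV libraries for both genes. In the pathway lists, RSV library C was the furthest for 8 of 10 genes called higher and for 5 of 8 called lower. Whether library C differed in its response, in cell content or in preparation was not tested.

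Among 1668 other tested mRNAs with a symbol, those nearest to ANGPTL4 in profile were ITPKA, NEFH and CXCL3. Likeness was the root mean square difference, over the 6 libraries, of the log2 ratio to the DMSO mean, with a pseudocount of 0.5. It was 0.09 for ITPKA, a kinase of inositol trisphosphate, 0.14 for NEFH, the heavy neurofilament chain, and 0.18 for CXCL3, a chemokine. NEFH had 341, 291 and 577 normalized reads in RSV and 50.8, 65.7 and 53.0 in DMSO. CXCL3 had 281, 223 and 433 in RSV and 39.4, 55.2 and 39.5 in DMSO, while ITPKA was low, with 37.7, 34.1 and 70.2 in RSV and 6.23, 7.29 and 5.64 in DMSO. Because likeness was taken over RSV library C as well, its high value in all of them follows from the choice.

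The mRNAs nearest to UCP2 were RAPGEF3, FAM83G and OSCAR, at 0.08, 0.09 and 0.11. RAPGEF3, an exchange factor activated by cyclic AMP, had 220, 228 and 202 normalized reads in RSV and 92.4, 99.0 and 83.5 in DMSO. FAM83G had a log2FC of 1.29 ± 0.18 (SE), and OSCAR, a receptor known from osteoclasts, had 1.24 ± 0.14 (SE). None of the 6 near mRNAs was in a pathway list. Only 18 of the 1669 tested mRNAs with a symbol were list genes, so nothing can be read from that.

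**Figure D4:**
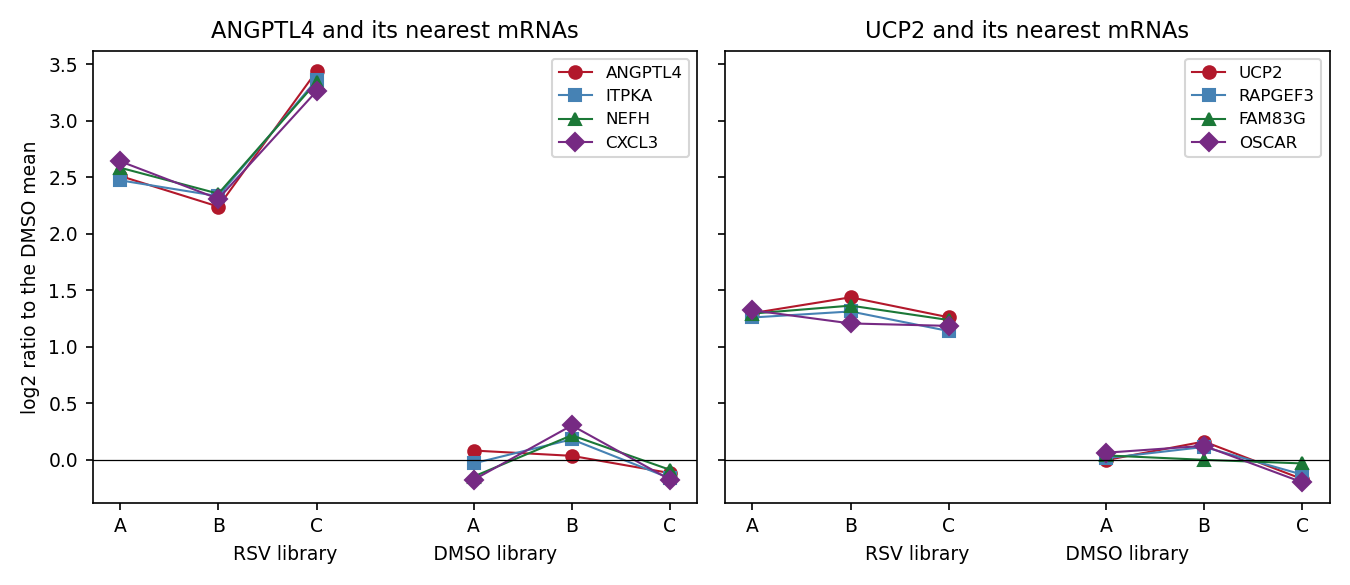
The log2 ratio to the DMSO mean (y axis) in each recovered library (x axis), for ANGPTL4 with its 3 nearest mRNAs (left) and UCP2 with its 3 nearest (right); lines only join the points of 1 mRNA. The left profiles lie between 2.24 and 2.64 in RSV libraries A and B and between 3.26 and 3.44 in C, and the right profiles lie between 1.14 and 1.44 in all RSV libraries.

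The cell type labels could be checked only in part, because few markers had a symbol with recovered reads. Of 12 myoblast and myotube markers, 3 had an identifier and 2 had recovered reads, TNNT1, a slow troponin, and MYMK, the fusion factor myomaker. Their summed level ran from 5568 to 5612 normalized reads with RSV and from 3321 to 3752 with DMSO. TNNT1 had a log2FC of 0.60 ± 0.08 (SE), and MYMK had 0.70 ± 0.08 (SE). These 2 markers were thus higher in the RSV group, as were ANGPTL4, UCP2 and CPT1A, but they have a symbol because they differed. Within the RSV group the order of libraries was not shared. MYMK was lowest in RSV library C, where TNNT1, ANGPTL4 and CPT1A were highest. The part of the myotube genes in those differences was not tested.

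None of 8 adipocyte and 4 endothelial markers had an identifier, and 4 of 6 fibroblast markers (PDGFRA, COL3A1, THY1 and DCN) had one. Their means were above 0, but no reads per library could be recovered from them, so their levels are not known here. They cannot be taken as absent. The means of these 4 could not be settled either. Among other mRNAs, where means were settled without reads, the larger group mean was at least 5062 normalized reads, so those were not low mRNAs. That value does not cover these 4 markers. All 4 have a symbol because they are in the sheet of differing mRNAs, and their direction was not examined here. Of 4 macrophage markers, CD14 had an identifier, with 31.3, 27.7 and 46.5 normalized reads in RSV and 10.4, 8.34 and 9.03 in DMSO. CD14 was higher in RSV. RSV library C was highest as for ANGPTL4, but for CD14 its 95% Poisson interval overlapped those of A and B. The log2FC of CD14 was 1.83 ± 0.34 (SE), on only 8 to 10 reads per DMSO library. Whether other cells than myoblasts bear on the differences was not tested.

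Whether reads were counted by strand is not given in the sources used here, so reads of overlapping genes may be mixed. In the RefSeq annotation of ARS-UCD2.0, ANGPTL4 overlaps LOC132345705, ACADVL overlaps MIR324, and PPARGC1A overlaps LOC112447206 and a transfer RNA gene, while UCP2 and CPT1A overlap no other gene. Of the other genes named, DBI, SIRT1, SIRT3, VLDLR, FAM83G and THY1 each overlap another gene there.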

How the data were processed

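mRNA of 3 RSV and 3 DMSO cultures was sequenced. The authors filtered the reads and compared the groups with DESeq, per the study's methods, and the submitters' processing notes name bosTau8 and Bowtie 0.12.9. The aligner, counting tool and annotation for the mRNA reads are not given in the sources used here. The authors deposited, per mRNA and group, the mean of read counts divided by size factors. The deposited table also holds the authors' fold changes and p-values, which are not reported. In the deposited mRNA values, decimal points were missing from most numbers above 1 and were placed again with the digits of the authors' log2 fold change, used for nothing else.

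Each mean was then written as a sum of 3 whole reads over size factors, and accepted where fewer than 0.01 combinations were expected by chance. This gave unique reads for 19848 mRNAs (97.0% of those with a mean above 0) and none for 611. The design was written for reads recovered in this way. The fit was limma voom in limma 3.58.1 under R 4.3.3, where size factors set the library sizes, at a minimum mean of 10 normalized reads and Benjamini-Hochberg adjustment. Reads were recovered with numba 0.67.0 and numpy 2.4.6, tables made with pandas 2.3.3 and scipy 1.17.1, and figures drawn with matplotlib 3.10.9, all in Python 3.11.15.

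Named genes were the members and list genes with an identifier in the study's sheets and the 3 mRNAs nearest in profile to ANGPTL4 and to UCP2. The members and lists were chosen with earlier results of these data known, and 1 listed gene is not reported here. The RefSeq table (ARS-UCD2.0) pairs no Ensembl identifier with a symbol, and was used for overlaps only. The recovery was tested on 998 simulated mRNAs, of which 979 gave unique reads and 979 the right ones. The simulation took the fitted size factors as given, so their estimation was not tested. Its base means were drawn below 5062 normalized reads, the lowest larger mean among mRNAs with settled means but no reads. In simulated counts of 14420 mRNAs for RSV against DMSO, with 200 changed by a log2FC of 1 at a dispersion of 0.02, 181 (90.5%) were called, with 13 others. These counts had the same dispersion in both groups, while RSV libraries B and C were spread more widely than the DMSO libraries. They also held far fewer changed mRNAs than were called in the data, so these rates do not carry over to the data. Alternatives were other minimum means, upper quartile library sizes, limma with a trend, a minimum log2FC, the ratio of the deposited means and each library left out. The miRNA part of the table was not used here.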

Additional observations from a re-analysis of the deposited data

How the results depend on the processing

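Of 60 log2FC values of the 5 genes under the alternatives, 0 changed direction. All 5 stayed called at the adjusted p in every fit, which is no independent support, since they came from a sheet of differing mRNAs. With an absolute log2FC of at least 1 required, ACADVL, at 0.37, is not called. The range over alternatives was 2.37 to 2.97 for ANGPTL4, 1.25 to 1.42 for UCP2, 0.96 to 1.13 for CPT1A, 0.29 to 0.42 for ACADVL and -1.44 to -1.09 for PPARGC1A. For each of the 5, both ends came from leaving out 1 library. Of 225 values of the other list genes and of the mRNAs near ANGPTL4 and UCP2 in profile, 0 changed direction. The markers TNNT1, MYMK and CD14 were not followed over the alternatives. Those that moved by over 1 SD of the libraries were at a pseudocount of 5, where the log2FC was 1.72 for DGAT2, 1.19 for FAM83G and 2.14 for ITPKA, a setting that by construction draws low genes toward 0. A minimum mean of 50 normalized reads left out ACSL6, DGAT2 and ITPKA. The marker CD14, with group means of 35.1 in RSV and 9.25 in DMSO, is below that minimum too.

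The number of called mRNAs was 4817, and with 1 library left out it ran from 2368 to 6013. The lowest counts were without a DMSO library, 2502 without A, 2602 without B and 2368 without C, and the highest, 6013, was without RSV library C. The cause was not tested. An absolute log2FC of at least 1 left 972, by construction. With upper quartile library sizes, 2166 were called higher and 2721 lower. No paired analysis was possible because the deposited columns carry no replicate number, and libraries were not matched to sample labels by their values. The 3 libraries per group, and the 611 mRNAs without reads, limit the precision.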
